A study of Rattus norvegicus with 26 samples.

Results

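A set of 47 genes of the actin cytoskeleton and of focal adhesions was followed in rat multipotent adult progenitor cells (rMAPCs) during differentiation towards smooth muscle cells (SMCs). The genes were taken from a fixed list, and each was read from the array probe whose gene name equals the list's name. Where a gene had several probes, as 16 genes did, the probe with the highest mean over all arrays was used. All 47 genes had a probe, among 41012 gene probes of 35287 distinct names on the array. Of these, 40 genes were well above background on all 26 arrays, and 46 could be tested along with 24442 probes in all. The gene left untested was *Evl*, a member of the Ena/VASP family, which was above background on 1 array.

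The arrays measured RNA of 2 rMAPC lines, Cl19 and 3c3, before differentiation (day 0, d0) and after 2, 4 and 6 days of it (d2, d4, d6). Each line and day had 3 arrays. Per the labels, both lines are *Oct4*-expressing clones from bone marrow of female Fischer rats, Cl-19 from animals of 3 weeks and 3c3 from the E18 stage. Cells of both lines were kept for 6 days in basal medium with TGF-ß and PDGF-bb, and cultures without these factors were not analysed here. Per the study this medium was free of serum, and for undifferentiated cells the study refers to culture conditions published before. The factors and any change of medium after d0 cannot be told apart. Each line is 1 clone, so that the 3 arrays of a day measure the spread within a clone. Primary rat aortic SMC RNA (RAOSMCs), which was bought, was measured on 2 arrays, and the labels and the study's methods name different suppliers for it. A label of these arrays says rat aortic RNA without naming a cell type, while the methods name primary smooth muscle cells. The name primary SMC used here is that of the methods. Nothing in the labels says whether the replicates came from separate cultures, or the 2 primary SMC arrays from separate RNA preparations. The p-values cover only the spread between arrays. For the genes of the set, the median SD was 0.032 between the primary SMC arrays and 0.1 to 0.24 within the other groups.

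Actin filaments are built from monomers and are continually cut, capped, bundled and rebuilt by dedicated proteins. At focal adhesions, clusters of integrins are tied to filament ends by talin, vinculin and α-actinin, and LIM-domain proteins such as zyxin and paxillin assemble there under tension. Many genes of this machinery are regulated by serum response factor, which binds the CArG box. Contractile SMCs are rich in these proteins.

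Across the arrays, 43.2% to 61.4% of gene features were well above background, and no feature was saturated. The lowest shares in rMAPCs, 44.3% and 43.2%, were those of 3c3 replicate 3 on d4 and d6. On each slide the 4 positions held d0, d2, d4 and d6 of 1 replicate in the same order, so that day and position cannot be told apart. The array labelled Cl19 d2 replicate 1 lay nearer to the 3c3 d2 arrays (root mean square difference of 0.382 to 0.538 on the log2 scale) than to the other Cl19 d2 arrays (0.876 and 0.917), and calls that change without it are given. The SMC markers *Cnn1*, *Tagln* and *Smtn* were above background on all arrays. The log2 of the summed intensity of the 6 SMC markers with a probe went from between 10.84 and 11.12 on Cl19 d0 arrays to between 15.90 and 16.16 on d6, and from between 10.49 and 10.71 to between 14.82 and 15.49 in 3c3. It was 16.52 and 16.56 on the primary SMC arrays. On d6 and primary SMC arrays this sum was set mostly by *Tagln*, with means of 15.85 in Cl19, 14.78 in 3c3 and 16.27 in primary SMCs. The mean of *Lmod1* was 5.01 and 4.46 on d6 and 9.52 in primary SMCs. That of *Des* was 7.82 and 7.50 on d6 and 6.57 in primary SMCs. *Myocd*, the myocardin gene, was above background on 1 of 3 Cl19 d6 arrays, on no 3c3 d6 array and on both primary SMC arrays. The array had no probe named *Myh11*. In RNA from whole cultures, fewer cells of a type and less RNA per cell cannot be told apart.

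Most of these genes rose during differentiation in both lines. From d0 to d6, 33 of 46 genes rose in Cl19 and 2 fell, where 22.0% of all tested probes rose and 30.3% fell. In 3c3, 28 genes rose and 1 fell, against 19.7% and 28.6% of all tested probes. The median change was 0.83 on the log2 scale in Cl19 and 0.62 in 3c3, while the median over all tested probes was -0.20 and -0.21. A total of 27 genes rose in both lines (58.7%, against 13.2% of all tested probes), and none fell in both (20.4% of all probes did). This holds for the brightest probe of each gene, and a dimmer probe of *Cfl2* and of *Fhl1* was called lower in both lines. The bases of these shares differ in signal. Of the 47 genes, 40 were well above background on all arrays, while a tested probe had to be so in 1 group only. All calls are from limma with Benjamini-Hochberg adjustment over 24442 probes, at an adjusted p below 0.05. With scaling by the 75th percentile in place of quantile normalization, 27 genes rose in Cl19 and 3 fell, against 21.5% and 32.7% of all tested probes. In 3c3, 23 rose and 3 fell under this scaling, against 18.9% and 30.3%. The calls lost were those of *Actg1*, *Zyx*, *Ptk2*, *Cfl1*, *Arpc1b* and *Rhob* in Cl19 and of *Actb*, *Ptk2*, *Cap1*, *Ezr* and *Rhob* in 3c3. With the authors' log2 table, which was not normalized between arrays, the balance over all tested probes turned, and 27.7% rose and 22.1% fell in Cl19 and 25.2% and 19.5% in 3c3, while 33 and 28 of the genes rose as before. Under every scaling tried, 88.5% to 96.6% of the genes called in a line were higher on d6. Over all probes, more were called lower than higher in each of these settings except the authors' log2 table.

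Markers of other cell types also differed between d0 and d6. The log2 of the summed intensity of 6 markers of undifferentiated rMAPCs was 15.18 to 15.30 on d0 and 13.94 to 14.54 on d6 in Cl19, and 15.29 to 15.43 and 14.81 to 14.90 in 3c3. Among them the mean of *Pou5f1*, the *Oct4* gene, went from 10.28 to 1.13 in Cl19, where it was above background on 1 of 3 d6 arrays, and from 11.53 to 7.42 in 3c3. The means of *Gata4*, *Gata6*, *Sox17* and *Sox7* were also lower on d6 in both lines, least so for *Gata4* in 3c3 (13.51 and 13.03). *Foxa2* went the other way, from 13.3 to 13.9 in Cl19 and from 13.4 to 13.9 in 3c3. The sum of 6 fibroblast markers went from between 12.28 and 12.42 to between 13.23 and 13.90 in Cl19, and from between 12.15 and 12.35 to between 10.60 and 11.73 in 3c3, with *Col3a1* and *Thy1* above background on no d0 or d6 array. *Col1a1*, a collagen chain, went from a mean of 6.00 to 13.26 in Cl19 and from 6.01 to 9.53 in 3c3. *Pdgfra*, which set most of the d0 sums, went the other way, from 12.34 to 10.41 and from 12.25 to 10.48. *Lum* and *Dcn* went from 0.62 to 7.67 and from 0.29 to 2.97 in Cl19. In 3c3 they were above background on no d0 or d6 array. The sum of 6 endothelial markers was 7.93 to 8.20 on d0 and 5.83 to 6.44 on d6 in Cl19, and 7.2 to 7.47 and 7.56 to 7.79 in 3c3, and 1 of 5 blood markers was above background on all arrays of these groups. The part of these cell types in the changes of the actin genes was not tested.

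**Figure D1:**
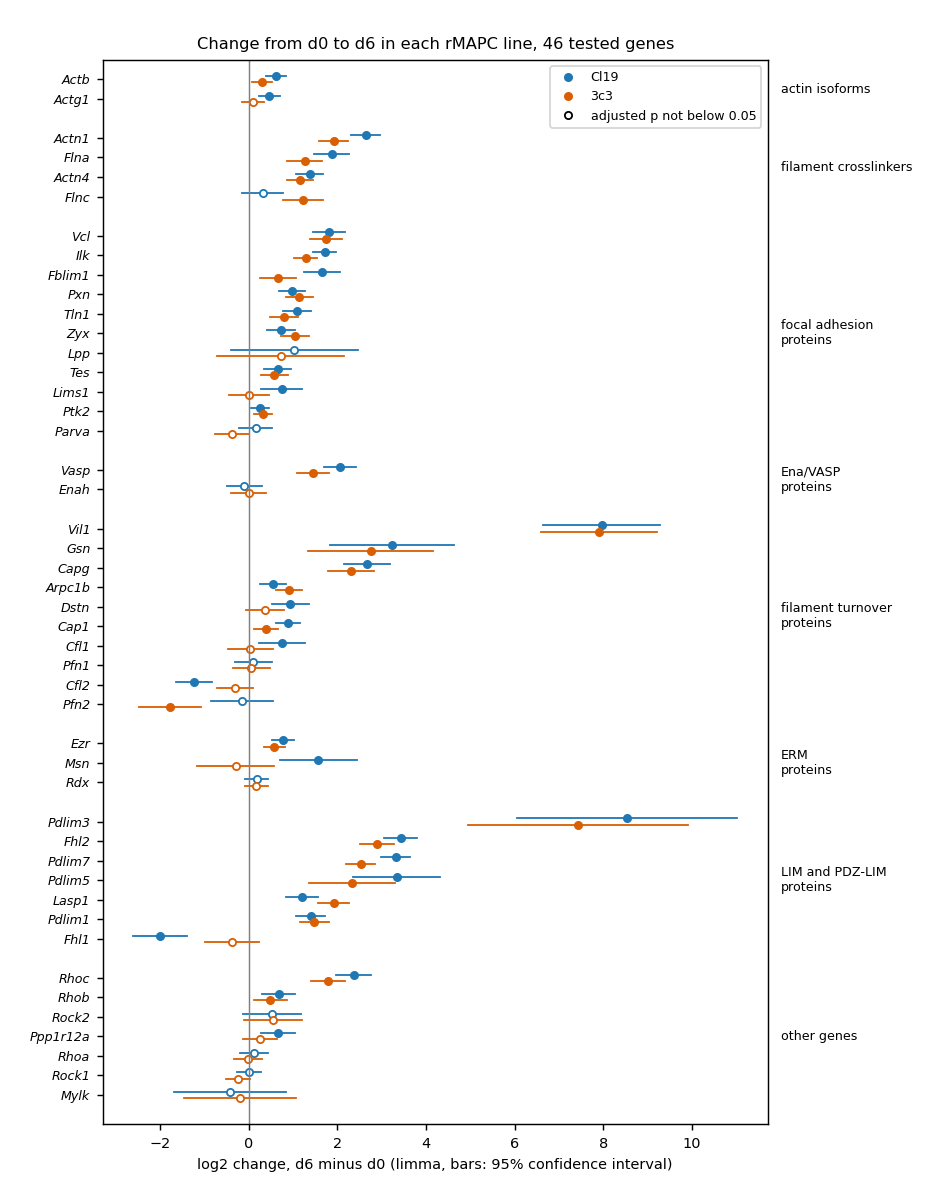
Change in normalized log2 intensity from d0 to d6 (x axis) for the 46 tested genes, grouped by role with the remaining genes at the bottom, in Cl19 (blue) and 3c3 (orange). Points are limma estimates from 3 arrays per day, bars are 95% confidence intervals, and open points have an adjusted p not below 0.05; 33 genes rose in Cl19 and 28 in 3c3, with *Pdlim3* and *Vil1* far to the right.

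Promoter sequences were looked up because the CArG box is the site of serum response factor, a known regulator of actin genes. RefSeq promoters (build GRCr8, 250 bases before to 50 after the start of a gene) were at hand for 38 of the 47 genes, 44 promoters in all, with none matched for *Actb*, *Actn4*, *Cap1*, *Capg*, *Lasp1*, *Lpp*, *Parva*, *Pdlim3* and *Ptk2*. A CArG box on either strand stood in 5 of these 44 promoters (11.4%), which belong to *Actg1*, *Fblim1*, *Fhl1* and *Fhl2*. Among all 33469 promoters, 1.64% held one. The stretches around the boxes follow, with the box in capitals.
Actg1, chr10:106121007-106121066, minus strand: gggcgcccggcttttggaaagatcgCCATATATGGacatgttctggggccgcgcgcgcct
Fblim1, chr5:159196842-159196901, minus strand: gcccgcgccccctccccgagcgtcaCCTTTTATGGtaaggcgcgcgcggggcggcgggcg
Fhl1, chrX:139638369-139638428, plus strand: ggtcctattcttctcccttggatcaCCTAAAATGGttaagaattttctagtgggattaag
Fhl2, chr9:52923350-52923409, minus strand: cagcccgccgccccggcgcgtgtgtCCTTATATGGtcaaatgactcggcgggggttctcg
Fhl2, chr9:52954601-52954660, minus strand: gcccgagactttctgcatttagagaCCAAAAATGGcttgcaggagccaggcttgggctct

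In *Fhl2* 2 alternative starts each carry a box. These 4 genes did not share a pattern: *Fhl2* and *Fblim1* rose in both lines, *Actg1* rose in Cl19, and *Fhl1* fell there. The letters CATTCC, the core of the site of TEAD factors, stood in 9 of 44 promoters (20.5%) on either strand, against 14.2% of all promoters. The palindrome GTCTAGAC, bound by Smad proteins, stood in none of the 44 and in 0.20% of all promoters. A match is a description of the letters in this window and not a measured binding site.

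The LIM and PDZ-LIM proteins, adaptors that sit on α-actinin and actin filaments, held 4 of the 8 largest rises. In Cl19, 6 of 7 rose and 1 fell, and in 3c3 6 of 7 rose and none fell. *Pdlim3* (probe on chromosome 16, 49637181 to 49637240, rat build rn4) encodes the actinin-associated LIM protein. Its log2 intensity was 3.41, 2.14 and 2.66 on the Cl19 d0 arrays and 10.95, 11.06 and 11.83 on d6. In 3c3 it was 3.27, 0.40 and 1.94 on d0 and 10.41, 8.48 and 9.0 on d6, so that d0 and d6 arrays lay far apart in both lines. The d0 arrays were not all above background (2 of 3 in Cl19, 1 of 3 in 3c3). The limma changes were 8.54 in Cl19 (SE 1.19, adjusted p 5.73e-06) and 7.42 in 3c3 (SE 1.19, adjusted p 4.09e-05). *Pdlim3* lay on d2 at 3.91 to 4.89 in 3c3 and at 4.16, 11.35 and 10.44 in Cl19, where the low value is that of replicate 1. Its rise by d2 in Cl19 was 5.91 with that array (adjusted p 0.00113) and 8.16 without it (adjusted p 6.84e-08). In 3c3 the rise by d2, 2.50, did not pass the test with that Cl19 array in the fit (SE 1.19) and passed without it (SE 0.62, adjusted p 0.00695). The rise from d2 to d6 in 3c3, 4.92, passed in both fits. With normexp background correction, which adds an offset to every signal, the rise from d0 to d6 was 5.05 in Cl19 and 3.31 in 3c3.

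*Fhl2*, encoding a four-and-a-half LIM domain adaptor that binds integrins and transcription factors, stood at 9.61, 9.38 and 9.62 on d0 and 13.15, 12.94 and 12.78 on d6 in Cl19. In 3c3 the d0 arrays gave 9.87, 9.48 and 9.64 and the d6 arrays 12.76, 12.46 and 12.47. The groups did not overlap in either line, and each later day had a higher mean than the day before. *Fhl2* was 10.7-fold higher on d6 in Cl19 (log2 change 3.43, SE 0.18, adjusted p 3.45e-11) and 7.46-fold higher in 3c3 (2.90, SE 0.18, adjusted p 3.96e-10).

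*Pdlim7*, which encodes enigma, rose 9.96-fold in Cl19, from 9.17, 8.97 and 9.08 on d0 to 12.47, 12.41 and 12.28 on d6 (limma adjusted p 4.36e-12). In 3c3 it rose 5.75-fold, from 9.29, 9.18 and 9.30 to 11.80, 11.87 and 11.67 (adjusted p 2.46e-10). A second probe for *Pdlim7* gave changes of 3.33 and 2.46, close to the 3.32 and 2.52 of the brighter one. *Pdlim5*, which encodes the enigma homologue, rose 10.09-fold in Cl19, from 6.08, 6.49 and 5.94 to 9.54, 9.92 and 9.05 (adjusted p 5.87e-06). It rose 5.002-fold in 3c3, from 6.01, 7.03 and 6.42 to 8.67, 9.66 and 8.10 (adjusted p 0.000388), and on replicate 2 it was higher than on the other arrays of the same day on every day in both lines.

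*Pdlim1*, encoding CLP36, rose by 1.40 in Cl19 and 1.48 in 3c3 on the log2 scale (adjusted p 4.1e-07 and 3.58e-07). *Lasp1*, encoding a LIM and SH3 protein that binds actin, rose by 1.20 and 1.91, and most of this came by d2. *Fhl1* went the other way in Cl19. Its values were 10.92, 10.75 and 10.96 on d0, stayed between 10.59 and 11.81 on d2 and d4, and were 8.97, 8.23 and 9.43 on d6. This is a 4.00-fold fall (log2 change -2.0, SE 0.29, adjusted p 9.14e-06), all of it after d4. In 3c3, *Fhl1* was 10.56, 10.66 and 10.98 on d0 and 10.51, 10.12 and 10.47 on d6, and the change of -0.37 did not pass the test (adjusted p 0.315). All 3 probes of *Fhl1* fell in Cl19 by 2.00 to 2.17, and 1 of them also fell in 3c3 (-0.66, adjusted p 0.0382).

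**Figure D2:**
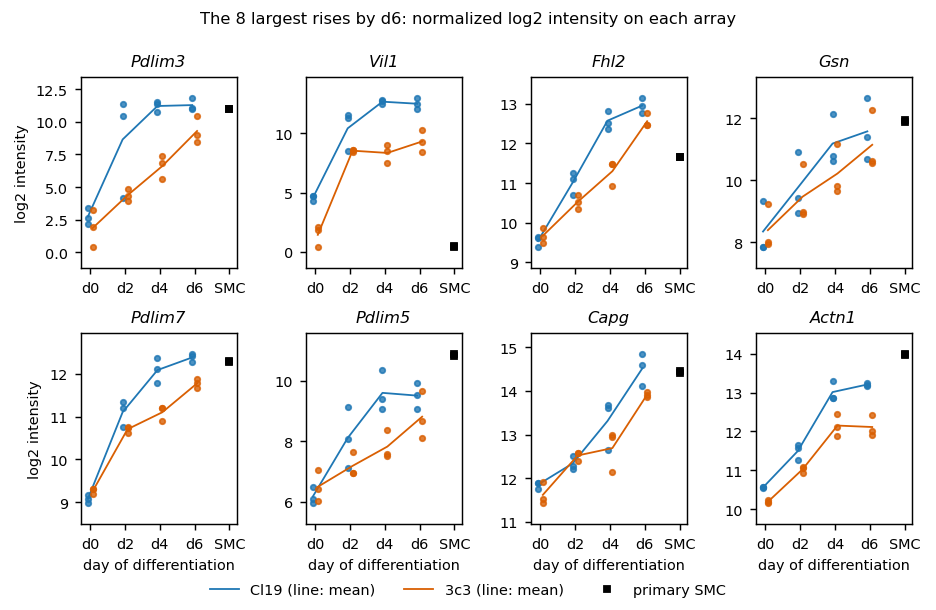
Normalized log2 intensity (y axis) on each array against day of differentiation for the 8 genes with the largest mean rise over both lines. Blue and orange points are Cl19 and 3c3 arrays, 3 per day, lines join their means, and black squares are the 2 primary SMC arrays. The genes were picked by this rise, and the low Cl19 d2 point of *Pdlim3* is replicate 1.

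Among the filament crosslinkers, *Actn1*, *Actn4* and *Flna* rose in both lines. *Actn1*, the α-actinin of stress fibres and adhesions, went from 10.56, 10.58 and 10.54 on d0 to 13.18, 13.26 and 13.19 on d6 in Cl19. In 3c3 it went from 10.23, 10.16 and 10.19 to 12.43, 12.01 and 11.91. The rise was 6.25-fold in Cl19 (log2 change 2.64, SE 0.16, limma adjusted p 1.31e-10) and 3.79-fold in 3c3 (1.92, SE 0.16, adjusted p 1.35e-08), and the arrays of the 2 days did not overlap. Its paralogue *Actn4* rose by 1.37 and 1.16 (adjusted p 1.55e-07 and 2.12e-06). *Flna*, encoding filamin A, which crosslinks filaments into networks, rose by 1.87 and 1.27 (adjusted p 9.4e-08 and 1.74e-05).

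*Flnc*, encoding the muscle-enriched filamin C, dipped before it rose. In Cl19 its values were 10.09, 10.02 and 10.22 on d0, 8.71, 8.93 and 8.60 on d2, and 10.39, 10.63 and 10.25 on d6. In 3c3 they were 10.29, 9.84 and 9.96 on d0, 8.45, 8.44 and 8.92 on d2, and 11.22, 11.53 and 11.02 on d6. The fall by d2 passed the test in both lines (log2 changes -1.36 and -1.43), as did the rise from d2 to d6 (1.67 and 2.66). The whole change from d0 to d6 passed in 3c3 (1.23, adjusted p 0.000109) and not in Cl19 (0.31, adjusted p 0.243).

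The 2 cytoplasmic actins moved little. *Actb*, encoding β-actin, was 16.42, 16.35 and 16.16 on Cl19 d0 arrays and 16.89, 16.97 and 16.91 on d6 (1.53-fold, adjusted p 5.47e-05). In 3c3 it rose 1.23-fold (adjusted p 0.0246), a call that was lost without 3c3 replicate 1 (adjusted p 0.162) or replicate 3 (0.185). *Actg1*, encoding γ-actin, rose 1.38-fold in Cl19 (adjusted p 0.00213) and gave 0.10 on the log2 scale in 3c3 (adjusted p 0.505). It went from 16.46, 16.46 and 16.47 on d0 to 16.91, 16.81 and 17.06 on d6 in Cl19, and from 16.46, 16.50 and 16.52 to 16.66, 16.42 and 16.69 in 3c3, with overlap in 3c3 alone. The calls of *Actb* in 3c3 and of *Actg1* in Cl19 were among those lost under the 75th-percentile scaling.

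Of the 11 focal adhesion proteins, 9 rose in Cl19 and 8 in 3c3, and none fell. *Vcl*, encoding vinculin, which links talin to actin, was 9.13, 9.25 and 9.14 on d0 and 10.87, 11.03 and 11.06 on d6 in Cl19. In 3c3 it was 9.28, 9.55 and 9.62 on d0 and 10.84, 11.56 and 11.30 on d6. Vinculin RNA thus rose 3.51-fold and 3.36-fold (limma adjusted p 5.38e-08 and 1.5e-07), and its other probes gave log2 changes of 1.88 to 1.96. *Ilk*, the integrin-linked pseudokinase, rose by 1.71 in Cl19 and 1.29 in 3c3 on the log2 scale, with 95% confidence intervals of 1.46 to 1.97 and 1.03 to 1.54.

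*Tln1*, the talin that activates integrins, rose by 1.09 and 0.80. *Pxn*, encoding the scaffold paxillin, rose by 0.97 and 1.14, all of it after d2, where its mean was 0.20 below d0 in Cl19 and 0.10 below in 3c3 without passing the test. *Zyx*, the tension-responsive LIM protein zyxin, rose by 0.73 and 1.04, and *Tes*, encoding testin, by 0.65 and 0.58. *Fblim1*, encoding migfilin, rose by 1.66 and 0.66, where the 3c3 call was lost without replicate 1 (adjusted p 0.181).

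The partners of ILK within the set did not follow it in full. Of their paralogues outside the set, *Lims2* was called higher and *Parvb* lower in both lines. *Lims1*, encoding PINCH-1, rose by 0.74 in Cl19 (adjusted p 0.00724), a call that was lost without Cl19 replicate 2 (adjusted p 0.071), and changed by 0.01 in 3c3 (adjusted p 0.975). *Parva*, encoding α-parvin, went from 9.76, 9.79 and 10.00 on d0 to 9.92, 10.26 and 9.84 on d6 in Cl19, and from 9.82, 9.77 and 9.93 to 9.89, 9.05 and 9.46 in 3c3. Its changes were 0.16 and -0.37, neither past the test (limma adjusted p 0.498 and 0.0987), and in 3c3 it was called lower without replicate 1 (-0.59, adjusted p 0.0272) and under the 75th-percentile scaling (-0.49, adjusted p 0.0327). *Lpp* was dim, above background on 21 of 26 arrays, and its changes of 1.03 and 0.72 did not pass, although it passed in Cl19 with the slide as a replicate block (adjusted p 0.0455). *Ptk2*, the focal adhesion kinase, passed at 0.25 and 0.32, but its calls depended on the probe and the processing. None of its 5 other probes rose in either line, and 1 of them, above background on 20 of 26 arrays, was called lower in 3c3 (-0.74, adjusted p 0.0329). The call of *Ptk2* in Cl19 was lost when any 1 Cl19 replicate was left out.

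The Ena/VASP proteins, which lengthen filaments at their growing ends, differed among themselves. *Vasp* went from 9.22, 9.01 and 9.25 on d0 to 11.40, 10.96 and 11.29 on d6 in Cl19, and from 9.46, 9.07 and 9.45 to 10.81, 10.68 and 10.85 in 3c3. These are rises of 4.16-fold and 2.74-fold (limma adjusted p 8.49e-09 and 1.25e-06), with no overlap. *Enah*, encoding Mena, went from 9.25, 8.86 and 8.93 on d0 to 9.13, 8.89 and 8.71 on d6 in Cl19, and from 9.38, 9.51 and 9.49 to 9.37, 9.45 and 9.57 in 3c3. Its arrays overlapped between days, and the changes were -0.10 (95% confidence interval -0.50 to 0.30) and -0.00 (-0.40 to 0.40). *Evl* was well above background on 1 of 26 arrays.

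Of the 10 genes of filament turnover, 7 rose and 1 fell in Cl19, and 5 rose and 1 fell in 3c3. The largest rise was that of *Vil1*, encoding villin, which bundles and severs filaments and is best known from the microvilli of epithelial cells. *Vil1* (chromosome 9, 73769114 to 73770845, rn4) was 4.26, 4.74 and 4.67 on d0 and 12.47, 12.07 and 13.01 on d6 in Cl19. In 3c3 it was 2.09, 1.79 and 0.38 on d0, never above background, and 10.30, 8.41 and 9.25 on d6. The rise was 249-fold in Cl19 (log2 change 7.96, SE 0.63, adjusted p 4.09e-09) and at least 101-fold in 3c3 (adjusted p 8.35e-09). This bound sets the d6 mean against each d0 array's lowest signal well above background, or against the gene's own value where that is higher. By d2 *Vil1* had reached 8.59, 8.47 and 8.57 in 3c3, and 8.48, 11.30 and 11.53 in Cl19, where replicate 1 again gave the low value. Computed the same way, the rise of *Pdlim3* was at least 368-fold in Cl19 and at least 82.1-fold in 3c3. These folds hold for the intensities as processed on the array: with normexp background correction the log2 change of *Vil1* was 5.97 in Cl19 and 3.35 in 3c3, both past the test.

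The levels of epithelial markers also differed between days. All 5 markers with a probe (*Cdh1*, *Krt8*, *Krt18*, *Krt19* and *Cldn6*) were above background on every rMAPC array. The log2 of their summed intensity was 17.01 to 17.11 on d0 and 17.89 to 17.98 on d6 in Cl19, and 17.05 to 17.14 and 17.75 to 17.85 in 3c3. This sum is set mostly by *Krt18*, whose mean went from 16.97 to 17.49 in Cl19 and from 17.00 to 17.38 in 3c3. The mean of *Cdh1*, the E-cadherin gene, went from 10.30 to 13.58 in Cl19 and from 9.47 to 13.49 in 3c3. *Krt8* went from 12.73 to 15.68 and from 12.42 to 14.63, and *Krt19* from 10.67 to 11.73 and from 10.05 to 14.27. On the primary SMC arrays the sum was 10.49 and 10.56, with *Cdh1*, *Krt19* and *Cldn6* above background on neither. The part of epithelial cells in the rise of *Vil1* was not tested.

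*Gsn*, encoding gelsolin, which severs and caps filaments, differed between slides. In Cl19 it was 7.84, 9.33 and 7.86 on d0 and 11.40, 12.66 and 10.68 on d6, and in 3c3 8.02, 9.22 and 7.93 on d0 and 10.63, 12.26 and 10.55 on d6. Replicate 2 was the highest of its group on all 4 days in both lines, and each slide rose from d0 to d6. The change was 3.23 in Cl19 (SE 0.67, limma adjusted p 0.000446) and 2.76 in 3c3 (SE 0.67, adjusted p 0.0022).

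*Capg*, a capping protein of the gelsolin family, rose 6.35-fold in Cl19, from 11.76, 11.89 and 11.90 to 14.60, 14.85 and 14.10 (adjusted p 3.61e-08). In 3c3 it rose 4.92-fold, from 11.90, 11.43 and 11.52 to 13.98, 13.87 and 13.91 (adjusted p 4.28e-07). *Arpc1b*, a subunit of the Arp2/3 complex that nucleates branches, rose by 0.55 and 0.91, and the whole rise was in place by d2 (0.78 and 1.00). Under the 75th-percentile scaling its change in Cl19 was 0.15 (adjusted p 0.491). *Cap1*, encoding a cyclase-associated protein that recycles actin monomers, rose by 0.89 in Cl19 and 0.39 in 3c3. The 3c3 call was lost without replicate 1 (adjusted p 0.124) or replicate 3 (0.0998).

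Paralogues of the actin-severing and monomer-binding families did not move as one. *Cfl1*, encoding the non-muscle cofilin, rose by 0.74 in Cl19 (adjusted p 0.0162), a call that was lost without replicate 3 (0.144), and gave 0.04 in 3c3. *Dstn*, encoding destrin, rose by 0.94 in Cl19 (adjusted p 0.000588) and gave 0.37 in 3c3 (adjusted p 0.141). *Cfl2*, encoding the muscle cofilin, fell in Cl19 from 10.12, 9.97 and 10.37 to 8.97, 8.92 and 8.87, a 2.35-fold fall with no overlap (limma adjusted p 2.2e-05). In 3c3 *Cfl2* gave -0.31 (adjusted p 0.199), and the only other of its probes above background on all arrays fell in both lines (-1.90 and -0.95). *Pfn1*, the main profilin, went from 14.56, 14.65 and 14.79 on d0 to 14.88, 14.45 and 14.98 on d6 in Cl19, and from 14.80, 14.46 and 14.71 to 15.20, 14.50 and 14.46 in 3c3. Its changes were 0.10 and 0.06 (adjusted p 0.696 and 0.827). *Pfn2* was 6.26, 6.68 and 6.69 on d0 and 6.22, 6.59 and 6.37 on d6 in Cl19. In 3c3 it was 7.27, 7.31 and 7.07 on d0 and 6.32, 4.90 and 5.10 on d6, a 3.43-fold fall (adjusted p 0.000229).

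The ERM proteins tie filaments to the cell membrane. *Ezr*, encoding ezrin, rose by 0.78 in Cl19 and 0.58 in 3c3 (limma adjusted p 1.31e-05 and 0.000403), and the call in 3c3 was lost under the 75th-percentile scaling (adjusted p 0.239). *Msn*, encoding moesin, was 5.11, 4.66 and 5.05 on d0 and 6.44, 7.02 and 6.08 on d6 in Cl19, a rise of 2.97-fold (adjusted p 0.00323) that did not pass without replicate 2 (adjusted p 0.091). In 3c3 *Msn* was 4.51, 4.02 and 4.59 on d0 and 5.56, 3.10 and 3.57 on d6, so that replicate 1 was above and the others were below all d0 arrays. Without replicate 1 the change in 3c3 was a called fall (-0.96, adjusted p 0.0176). *Rdx*, encoding radixin, gave 0.18 and 0.17, neither past the test.

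*Rhoc*, encoding a GTPase that drives stress fibres, went from 10.10, 10.01 and 10.07 to 12.46, 12.56 and 12.25 in Cl19 and from 10.32, 10.14 and 10.26 to 12.22, 12.05 and 11.80 in 3c3. These are rises of 5.15-fold and 3.44-fold (limma adjusted p 3.8e-09 and 2.61e-07). *Rhob*, an inducible GTPase found on endosomes, rose by 0.67 and 0.49, and the 3c3 call was lost when any 1 of the 3c3 replicates was left out (adjusted p 0.0738 to 0.143). *Rhoa*, a GTPase that promotes contraction, went from 12.83, 12.79 and 13.11 on d0 to 13.00, 12.95 and 13.16 on d6 in Cl19, and from 13.09, 13.02 and 13.42 to 13.11, 13.06 and 13.29 in 3c3. Its days overlapped in both lines, and the change was 0.13 (95% confidence interval -0.19 to 0.44) and -0.02 (-0.34 to 0.29).

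*Rock1* and *Rock2*, encoding kinases that promote myosin contraction, showed no called change. *Rock1* went from 12.44, 12.49 and 12.34 on d0 to 12.42, 12.57 and 12.31 on d6 in Cl19, and from 12.46, 12.48 and 12.63 to 12.25, 12.52 and 12.06 in 3c3. *Rock1* gave 0.01 (adjusted p 0.946) and -0.24 (0.132), and *Rock2* 0.53 (0.165) and 0.54 (0.164). With the 75th-percentile scaling *Rock1* was called lower in both lines (-0.33 and -0.54). *Rock2* was called higher in both lines with the authors' log2 table (0.95, adjusted p 0.0353, and 0.92, adjusted p 0.0456) and in Cl19 in a fit of that line alone (adjusted p 0.0236). *Ppp1r12a*, the targeting subunit of myosin phosphatase, rose by 0.65 in Cl19 (adjusted p 0.00521), and its second probe gave -0.07 there. *Mylk*, encoding myosin light chain kinase, was above background on 1 of 24 rMAPC arrays, with values of 0.16 to 2.56 on all of them.

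By d2, 20 of 46 genes had risen and 2 had fallen in Cl19, where 11.2% and 11.5% of all tested probes did. In 3c3, 15 had risen and 1 had fallen by d2, against 9.80% and 9.27%. From d2 to d6, 19 rose and 1 fell in Cl19 (15.2% and 18.1% of all probes), and 20 rose and 1 fell in 3c3 (12.0% and 15.5%). Without the array labelled Cl19 d2 replicate 1, 22 genes again changed by d2 in Cl19, while the count from d2 to d6 went from 20 to 16. *Flna* then passed by d2, and *Rhob* no longer did. From d2 to d6, *Vcl*, *Gsn*, *Vil1* and *Pdlim5* no longer passed. The share of all tested probes without this array is not given here.

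Of the 7 LIM and PDZ-LIM genes, 6 had risen by d2 in Cl19 and 4 in 3c3. Of the 11 focal adhesion genes, only *Vcl*, *Ilk* and, in Cl19, *Fblim1* had risen by d2, and 5 rose from d2 to d6 in Cl19 and 7 in 3c3. Without the array labelled Cl19 d2 replicate 1, the LIM and PDZ-LIM counts by d2 were 6 and 5, and the focal adhesion count from d2 to d6 in Cl19 was 4. The difference between these shares was not tested. Without 3c3 replicate 3, 10 genes changed by d2 in 3c3 in place of 16, and without 3c3 replicate 2, 12 changed from d2 to d6 in place of 21. With fewer arrays calls can be lost for any probe, and the share of all tested probes in these fits is not given here.

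The change from d0 to d6 differed between the lines for 9 of 46 genes (limma interaction, adjusted p below 0.05), against 17.4% of all tested probes, a share near that of these genes. Among the 27 genes that rose in both lines, *Actn1*, *Fblim1*, *Pdlim7* and *Lasp1* differed in size. The rise in Cl19 was larger for *Actn1* (difference 0.72, SE 0.22, adjusted p 0.0282), *Fblim1* (0.99, SE 0.28, adjusted p 0.0165) and *Pdlim7* (0.79, SE 0.22, adjusted p 0.0139). It was smaller for *Lasp1* (-0.72, SE 0.24, adjusted p 0.0458). A larger value in Cl19 was also called for *Msn* (1.87, SE 0.58, adjusted p 0.0308), which rose in Cl19 alone, and for *Pfn2* (1.63, SE 0.48, adjusted p 0.0212), which fell in 3c3 alone. A lower value was called for *Flnc* (-0.92, SE 0.31, adjusted p 0.0433), *Cfl2* (-0.92, SE 0.27, adjusted p 0.0223) and *Fhl1* (-1.63, SE 0.41, adjusted p 0.00794).

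None of these 9 differences passed with each replicate left out in turn. *Fhl1* came closest and failed only without 3c3 replicate 1 (adjusted p 0.0536). With a replicate block, which removes differences between slides, the difference for *Flnc* no longer passed (adjusted p 0.0531), and those for *Lims1* (0.73, adjusted p 0.00267), *Ilk* (0.43, 0.00612), *Vasp* (0.60, 0.012), *Cap1* (0.50, 0.021) and *Flna* (0.60, 0.0284) did. All arrays of a line were scanned on the same day, so that line and scan day cannot be told apart in levels, while the change from d0 to d6 lies within each slide.

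**Figure D3:**
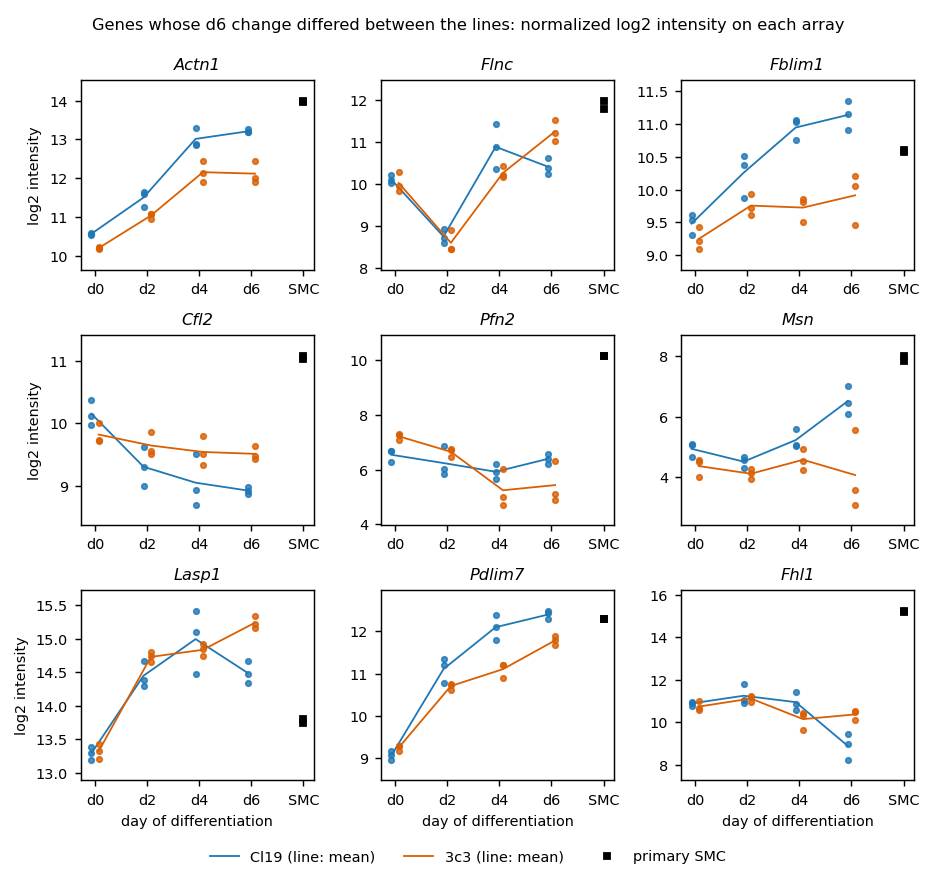
Normalized log2 intensity (y axis) on each array against day of differentiation for the 9 genes whose change from d0 to d6 differed between Cl19 (blue) and 3c3 (orange) in limma. Points are single arrays, lines join the means of 3 arrays, and black squares are the 2 primary SMC arrays; *Fhl1* falls after d4 in Cl19, and *Flnc* dips on d2 in both lines.

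Genes of the same pathway outside the set moved upwards in part. Of 99 further genes listed for this purpose, 83 had a probe and 77 were tested. In Cl19, 40 of them rose from d0 to d6 and 12 fell, where 22.0% and 30.3% of all tested probes did, and in 3c3 38 rose and 18 fell, against 19.7% and 28.6%. Their median change was 0.58 on the log2 scale in Cl19 and 0.36 in 3c3, between that of the 46 genes and that of all probes.

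Among genes above background on every array of d0 and d6, one of the largest rises was that of *Tmsb4x*, encoding the monomer-binding thymosin β4 (3.72 and 3.28 on the log2 scale). *Tgfb1i1*, encoding Hic-5, a paxillin relative induced by TGF-ß, rose by 4.34 and 2.56. *Coro1a*, encoding coronin 1A, rose by 3.31 and 3.29, and *Vill*, encoding a villin-like protein, by 2.72 and 3.55. Each of these passed the limma test in both lines, with adjusted p values of at most 1.56e-07. Genes that were dim on d0 rose further and are named here after their values were seen. *Lcp1*, encoding the bundling protein L-plastin, was above background on no d0 array and rose at least 202-fold in Cl19 and at least 25.3-fold in 3c3. *Tns1*, encoding tensin 1, rose at least 209-fold in Cl19 and by 5.77 on the log2 scale in 3c3, and *Lims2*, encoding PINCH-2, rose by 3.87 in Cl19 and at least 18.1-fold in 3c3.

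In all, 11 of these genes were called lower in both lines. They include *Parvb*, encoding β-parvin (-0.87 and -2.45), *Arhgef7*, encoding the exchange factor β-PIX (-1.37 and -1.02), and *Wasl*, encoding N-WASP (-1.30 and -0.83). *Scin*, encoding the gelsolin relative scinderin, was above background on all d0 and no d6 arrays and fell at least 4.61-fold in Cl19 and at least 4.74-fold in 3c3. The others were *Capza1*, *Capza2*, *Coro1c*, *Limd1*, *Ppp1r12c*, *Tmod3* and *Twf1*, with log2 changes of -0.39 to -1.14. *Pak1*, a kinase downstream of Rac and Cdc42, fell in 3c3 (-2.58) and gave -0.15 in Cl19 without passing. *Tmod1*, encoding a pointed-end capping protein, fell in 3c3 (-2.29) and gave -1.48 in Cl19 (adjusted p 0.072). *Myh14*, a non-muscle myosin heavy chain, rose by 3.32 in Cl19 and fell by 2.15 in 3c3, and *Wasf1*, encoding WAVE1, rose by 1.25 and fell by 1.00. *Scin*, these others and the last 2 genes, which had opposite calls, were singled out after their values were seen.

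Primary SMCs differed from d6 cells in both directions, in 73.9% of the 46 genes against Cl19 and 69.6% against 3c3, shares close to the 71.4% and 71.5% of all tested probes. Against Cl19 d6, 19 of 46 genes were higher in primary SMCs and 15 lower, where 32.8% and 38.6% of all tested probes were. Against 3c3 d6, 22 were higher and 10 lower, where 33.4% and 38.1% of all tested probes were. The 2 comparisons share the primary SMC arrays, which lay on a slide and scan day of their own, so that sample type and slide cannot be told apart. Fibroblast markers were also high in the primary SMC RNA, with all 6 above background and a summed log2 intensity of 16.63 and 16.70. On d6 arrays that sum was 13.23 to 13.90 in Cl19 and 10.60 to 11.73 in 3c3, and its part in the differences was not tested. The blood markers *Ptprc* and *Cd68* were above background on both primary SMC arrays, with means of 5.11 and 4.69. *Ptprc* was so on 1 of 3 Cl19 d6 arrays and on no 3c3 d6 array, while *Cd68* had d6 means of 6.75 and 6.87. The part of other cell types in the primary SMC RNA was not tested.

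All 4 crosslinkers were higher in primary SMCs than in d6 cells of either line. *Flna* was at 14.67 and 14.75 there, 2.31-fold above Cl19 d6 and 3.59-fold above 3c3 d6 (limma adjusted p 3.79e-05 and 1.63e-07). *Vcl* (12.41 and 12.33), *Zyx*, *Ilk* and *Tln1* were higher as well, with log2 differences of 0.77 to 2.21 against Cl19 and 0.95 to 2.35 against 3c3. *Parva*, which did not rise in culture, stood at 12.82 and 12.79, or 6.98-fold and 10.1-fold above d6 cells (adjusted p 2.31e-10 and 1.55e-11).

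*Fhl1*, *Pfn2* and *Cfl2*, the genes whose brightest probe fell in 1 of the lines, were all higher in primary SMCs. *Fhl1* was at 15.22 and 15.18, 80.1-fold above Cl19 d6 and 28.6-fold above 3c3 d6 (limma adjusted p 1.28e-12 and 7.16e-11). *Pfn2* was at 10.14 on both arrays, 13.4-fold and 26.03-fold above d6 cells. *Cfl2*, at 11.03 and 11.07, was 4.38-fold and 2.92-fold higher. *Mylk*, at 6.32 and 6.07, was at least 17.3-fold above Cl19 d6 and at least 10.3-fold above 3c3 d6 (adjusted p 3.2e-06 and 7.16e-07). *Msn*, at 7.84 and 8.0, was 2.65-fold above Cl19 d6 and at least 12.4-fold above 3c3 d6.

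Other genes were far lower in primary SMCs than in d6 cells. *Vil1* gave 0.46 and 0.43, above background on neither array, at least 428-fold below Cl19 d6 and at least 46.8-fold below 3c3 d6 (limma adjusted p 8.45e-12 and 8.43e-10). *Ezr* was at 11.73 and 11.78 against 15.99 to 16.42 on d6 arrays, 23.4-fold and 20.8-fold lower. *Rdx*, its paralogue, was 5.33-fold and 4.999-fold lower. *Tes*, at 4.80 and 4.85, gave log2 differences of -3.80 and -4.00. *Rock1*, at 9.72 and 9.69, was 6.62-fold and 5.93-fold lower, and *Rock2* was at least 5.81-fold and at least 6.48-fold lower. *Fhl2*, *Lasp1*, *Pxn* and *Rhob* were lower than in both lines on d6, with log2 differences of -0.72 to -1.80.

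For some of the strongest risers the difference from primary SMCs did not pass the threshold. For *Pdlim3* (10.98 and 10.99 in primary SMCs), *Gsn* (11.94 and 11.88) and *Capg* (14.41 and 14.46) neither difference passed. For *Capg* the 95% confidence interval of the difference was -0.66 to 0.50 against Cl19 and -0.06 to 1.1 against 3c3. For *Gsn* and *Pdlim3* the intervals were wide, up to -3.07 to 2.48 for *Pdlim3* against Cl19. Without the array labelled Cl19 d2 replicate 1, on which *Pdlim3* lay far from its group, the interval against Cl19 d6 was -1.74 to 1.16, and *Pdlim3* was called higher in primary SMCs than in 3c3 d6 cells (1.69, adjusted p 0.0357), where all 3 arrays lay below both primary SMC arrays. *Pdlim7* gave -0.09 against Cl19 d6 (95% confidence interval -0.45 to 0.26) and was 1.43-fold higher than 3c3 d6 (adjusted p 0.0118). *Lims1*, *Ptk2*, *Lpp*, *Arpc1b*, *Rhoa* and *Ppp1r12a* also passed in neither comparison.

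*Actb* was 1.30-fold higher than 3c3 d6 and *Actg1* 1.28-fold lower than Cl19 d6. *Actn1* was higher by 0.77 and 1.86 on the log2 scale, *Actn4* by 0.76 and 0.72 and *Flnc* by 1.48 and 0.64. *Fblim1* was lower than Cl19 d6 (-0.55) and higher than 3c3 d6 (0.67), the only gene with calls in both directions. *Vasp* (-0.65), *Cap1* (-0.41) and *Rhoc* (-0.69) were lower than Cl19 d6 alone, *Enah* (0.61) was higher than Cl19 d6 alone, and *Dstn* (0.84) was higher than 3c3 d6 alone. *Cfl1*, *Pfn1*, *Pdlim1* and *Pdlim5* were higher than both, by 0.52 to 2.03. The call of *Pfn1* against Cl19 d6 was lost without the array labelled Cl19 d2 replicate 1 (adjusted p 0.0514).

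**Figure D4:**
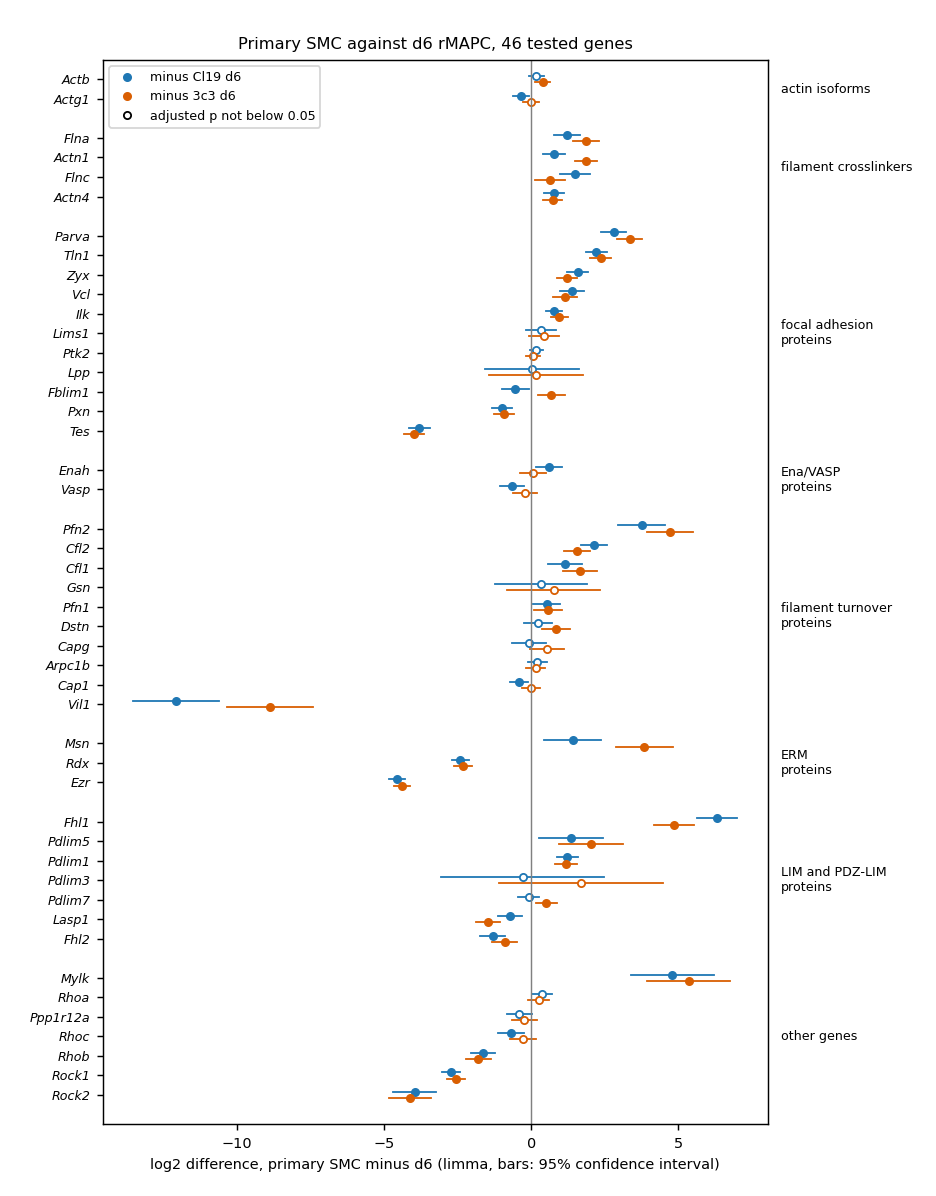
Difference in normalized log2 intensity between primary SMCs (2 arrays) and d6 cells (x axis) for the 46 tested genes, against Cl19 d6 (blue) and 3c3 d6 (orange), 3 arrays each. Points are limma estimates, bars are 95% confidence intervals, and open points have an adjusted p not below 0.05; *Fhl1*, *Mylk* and *Pfn2* lie to the right and *Vil1*, *Ezr*, *Tes* and *Rock2* to the left.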

How the data were processed

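RNA of 26 samples was hybridised to 1-colour Agilent rat arrays. The authors deposited the scanner output of each array, in which intensity is the background-subtracted processed signal of Agilent Feature Extraction (version 10.1.1.1 in the submitters' processing notes). The deposited series table holds log2 values that equal the log2 of this intensity to within 5.2e-14, so the authors' table was not normalized between arrays. Probe positions are those of the deposited files, in build rn4.

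Intensities of 43379 gene features were quantile normalized on the log2 scale, features with outlier flags were then left out, and repeat features were averaged by probe. A probe was tested if 1 or more of the 9 groups had it well above background on all their arrays. Means of the 9 groups were fitted together in limma 3.58.1 (R 4.3.3, with data.table, version 1.17.8), with Benjamini-Hochberg adjustment over 24442 probes and a threshold of 0.05. The code was tested on simulated data. Figures and counts were made in Python 3.11.15 with pandas 2.3.3, numpy 2.4.6 and matplotlib 3.10.9. Quantile normalization assumes that the arrays share a distribution, so that changes are relative to all probes. The number of arrays limits the precision.

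The 47 genes, the further pathway genes, the markers and the alternatives were chosen with earlier results of these data known. Values were given in full for the 8 genes with the highest and the 8 with the lowest change in the mean of both lines (3 of the latter had a called fall), for genes whose change differed between lines and for sets of paralogues. Of the further pathway genes, the 5 largest rises and 5 largest falls among those above background on every array of d0 and d6 were named, except 1 that is not reported here. Samples were grouped by their labels. Alternatives were scaling by the 75th percentile, the authors' log2 table, normexp background correction (offset 50), no filter on dim probes, a floor, the mean over a gene's probes, the slide as a block, a fit of 1 line, the methods' t-test, and leaving out each replicate or the array labelled Cl19 d2 replicate 1. *Acta2* was not analysed.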

Additional observations from a re-analysis of the deposited data

Results flagged for a closer look

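The change from d0 to d6 differed between the lines, by the limma interaction test with adjustment over all tested probes, for 9 genes. Cl19 minus 3c3, the difference was 0.72 for *Actn1* (adjusted p 0.0282), 0.99 for *Fblim1* (0.0165), 0.79 for *Pdlim7* (0.0139), 1.63 for *Pfn2* (0.0212) and 1.87 for *Msn* (0.0308). It was -0.92 for *Flnc* (adjusted p 0.0433), -0.92 for *Cfl2* (0.0223), -0.72 for *Lasp1* (0.0458) and -1.63 for *Fhl1* (0.00794). Groups had 2 or 3 arrays, and no outlier test of single values was run in groups of this size.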

How the results depend on the processing

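Of the genes called from d0 to d6, 26 of 35 in Cl19 and 20 of 29 in 3c3 kept their call under all alternatives run, and 31 and 24 kept it with each replicate left out in turn. The count of genes that fell in 3c3, 1, was 3 with the 75th-percentile scaling, 2 with the methods' t-test unadjusted, 0 with it after Benjamini-Hochberg adjustment, and 1 to 3 with a replicate left out. The count of genes changed by d2 in 3c3, 16, ranged from 10 to 17 with a replicate left out, that from d2 to d6, 21, from 12 to 24, and that of differences between lines, 9, from 1 to 9. The last count was 6 without a filter on dim probes and 6 with the mean over a gene's probes. The shares of all probes under these settings are not given here. A loss of calls particular to these genes cannot be told apart from a general one. Of the further pathway genes, 18 fell in 3c3, and 10 did with the methods' t-test after adjustment. Of 92 changes from d0 to d6 in a line, 20 turned in sign under an alternative, 17 of them called under neither. The other 3 were those of *Ptk2* in Cl19 (-0.10, 75th-percentile scaling) and in 3c3 (-0.21, mean over probes) and of *Rock1* in Cl19 (-0.33, 75th-percentile scaling). *Gsn* in 3c3 missed the threshold with the methods' t-test after adjustment (0.0505). The median over all probes was -0.20 in Cl19 and -0.21 in 3c3, and 0.10 and 0.09 with the authors' log2 table. The cause of these changes was not tested.

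Same-numbered arrays of a line share a slide. Their deviations from the group means correlated above 0.1 in 16 of 18 pairs in Cl19 and 18 of 18 in 3c3. With the replicate block, 13 genes differed between lines in place of 9 (28.3%, against 24.6% of all probes), 34 rose in Cl19 in place of 33 (24.9% of all probes did) and 28 rose in 3c3 as before (22.5%). The block could not be used for primary SMCs, which had a slide of their own. Dim genes such as *Evl*, *Mylk* and *Lpp* are limited by signal over background.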
